A study of Mus musculus with 19 samples.

Results

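The genes described here are those whose transcripts stood above whole embryonic body in the mouse lens, in the tooth germ or in both organs, together with those above the body in one organ and below it in the other. They rest on 13 of the 19 arrays of the series. The lens set holds E12.5 lens (n = 3) and whole body labelled E10.5 to E12.5 (n = 4), and the tooth set holds E13.5 tooth germ (n = 3) and whole body labelled E11.5 to E13.5 (n = 3). Every embryo was wild type of the ICR strain, an outbred stock, and no group was treated or carried an allele. Tissue was dissected by hand in buffer from timed embryos, and the labels do not say how many embryos entered an array, whether epithelium and mesenchyme of the tooth germ were parted, or whether the organ was removed from the bodies. The study's stated aim was to find genes enriched in each organ and to use them in ranking candidate genes for cataract. The lens and tooth arrays were not set against each other: each organ was compared with its own bodies, and the resulting differences were set side by side.

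Lens and tooth both begin as a placode, a local thickening of the head ectoderm. The lens placode folds inward, pinches off as a closed vesicle and leaves the surface ectoderm, after which its rear cells lengthen into fibres and fill with crystallins. The dental placode stays joined to the oral epithelium and grows as a bud into mesenchyme derived from the neural crest, with which it exchanges signals of the BMP, FGF, Wnt, hedgehog and ectodysplasin families. A dissected tooth germ can thus hold epithelium and mesenchyme, while a lens vesicle is an epithelium with fibres inside.

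Levels are log2 signals of 1 probe set per gene, a probe set a set of short oligonucleotides matching the same transcript; the SD printed beside a mean is that between the arrays of a group. Differences are log2, organ minus its own bodies, with the standard error (SE) of the fit, and 1 on this scale is a 2-fold difference. Enriched means called higher by limma (Benjamini-Hochberg adjusted p under 0.05 over 13320 genes) and at least 2-fold, and depleted is the mirror image. The lens difference minus the tooth difference, called the contrast of the organs below, was tested in the same model. Because the labels do not say that replicates came from separate litters or pools, p-values reflect array-to-array spread alone, and precision is limited by how few arrays there are. By these rules 42 genes were enriched in both organs (0.315% of the genes tested), 526 in the lens only (3.95%) and 327 in the tooth germ only (2.45%), where "only" required that the contrast of the organs was called and the other organ was neither called higher nor depleted. A further 81 genes (0.608%) were enriched in the lens and depleted in the tooth germ, 92 (0.691%) were enriched in the tooth germ and depleted in the lens, and 568 (4.26%) were depleted in both.

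**Figure D1:**
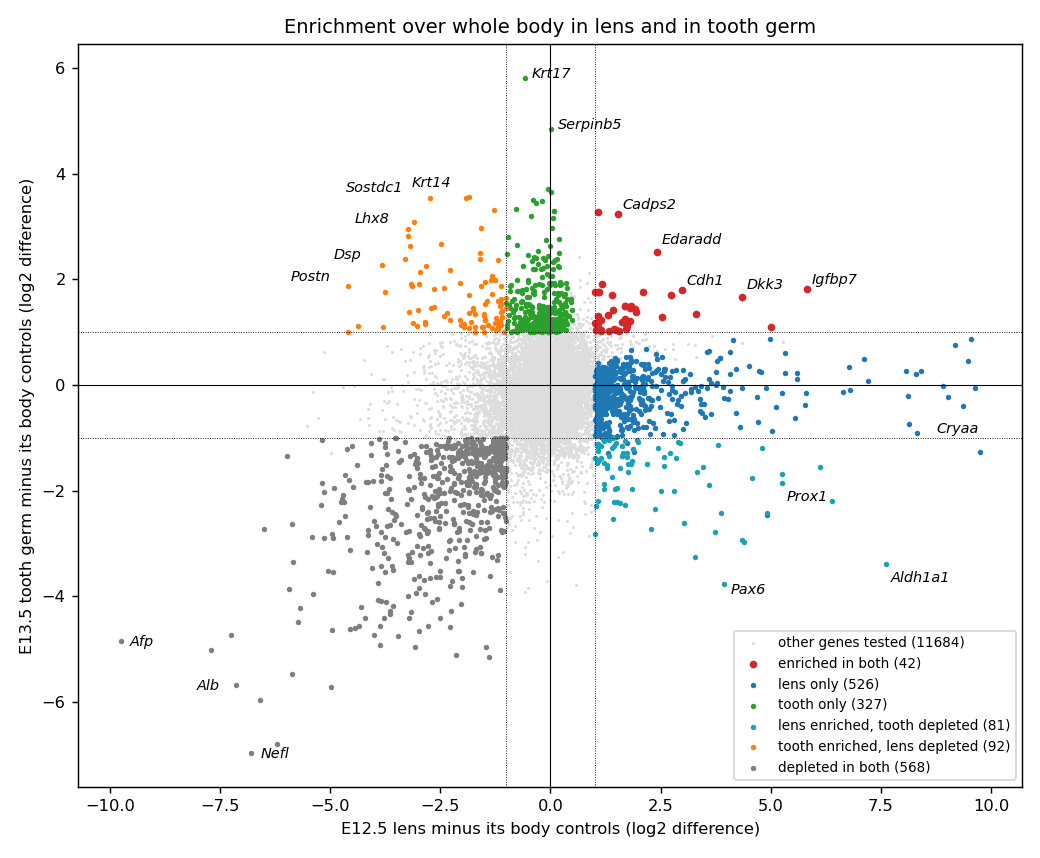
Log2 difference of E12.5 lens from its bodies (x axis) against that of E13.5 tooth germ from its bodies (y axis) for 13320 genes, 1 point per gene, coloured by class, with dotted lines at 1 and -1. The 42 genes enriched in both organs lie at the upper right with lens differences from 1.01 to 5.82, the crystallin Cryaa lies at 9.37 and -0.40, and the 568 genes depleted in both fill the lower left.

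The sharing of enriched genes lay near or somewhat above the background. The 42 shared genes made up 5.50% of the 763 lens-enriched genes, against 3.93% of all genes tested that were enriched in the tooth germ, and 8.03% of the 523 tooth-enriched genes, against 5.73% of all genes that were enriched in the lens. At any size, 400 genes were called higher in both, 18.1% of either set against 16.6% of all genes. Shared depletion lay well above the background: 568 genes were 34.1% of the 1667 lens-depleted genes, where 10.4% of all genes were depleted in the tooth germ, and 41.0% of the 1386 tooth-depleted genes, where 12.5% were depleted in the lens. Opposite calls also lay near or somewhat above the background, since 10.6% of lens-enriched genes were depleted in the tooth germ (10.4% of all genes) and 17.6% of tooth-enriched genes were depleted in the lens (12.5%). Over the 13320 genes the 2 differences had a Pearson correlation of 0.28 and a Spearman correlation of 0.20, given as a description, since genes on 1 array are not independent. The lens and tooth comparisons share no array.

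Some arrays stood apart from their group. Correlations within the 4 groups ran from 0.98 to 0.994. Among the tooth germs, replicate 3 had Xist, the RNA that silences 1 X chromosome in females, at 6.20, against 12.89 and 13.07 in replicates 1 and 2, and the Y-linked gene Kdm5d at 7.08, against 2.83 and 2.91. The tooth-series bodies all had high Xist (13.11 to 13.23) and low Kdm5d (2.70 to 3.02), the lens-series bodies all had low Xist (5.70 to 6.26), and the lens arrays had both Xist (10.69 to 11.34) and Kdm5d (5.70 to 6.6). Tooth germ replicate 3 also carried crystallin signal, for example Cryba1 at 8.88, against 5.07 and 4.63 in the other tooth germs and 7.37 to 7.54 in the tooth-series bodies. These genes were chosen after their values were seen. Without this array 44 genes were enriched in both organs, 37 of them among the 42 (Npnt, Map7, S100a4, Tenm2 and Spon1 left), 515 in the lens only, 321 in the tooth germ only, 85 and 92 in opposite directions and 568 were depleted in both. The signal of bacterial control probe sets, added in the laboratory as a hybridisation check, was 10.31 to 10.65 (log2) on the tooth arrays and 8.34 to 9.08 on their bodies, so that control signal and group cannot be told apart there. In the lens series it split across groups, and the high set held a single E12.5 lens array, replicate 1, so no count is given for it. Within the low set of the lens series, with every tooth-series array kept, the shared class held 39 genes, 38 of them among the 42.

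**Figure D2:**
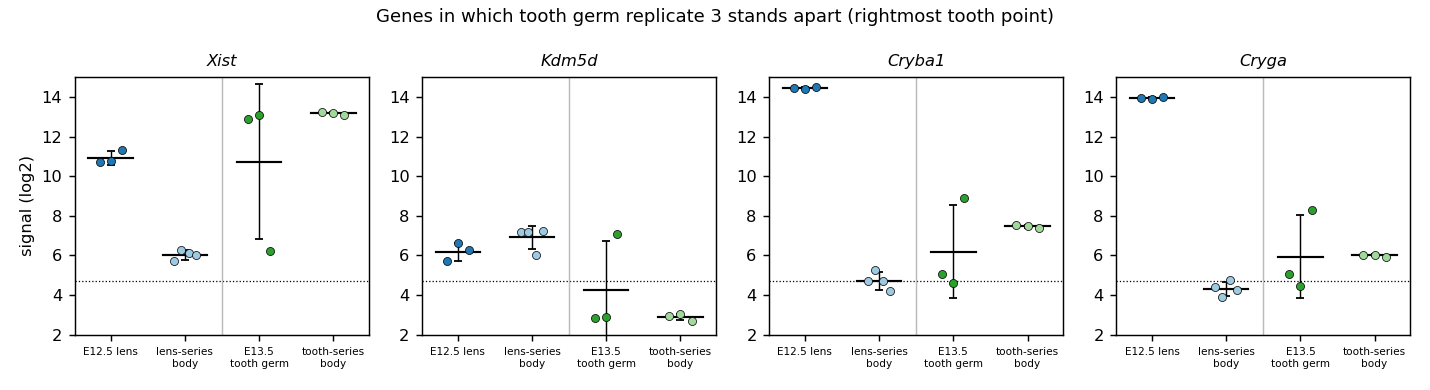
Signal (log2, y axis) of Xist, Kdm5d and the crystallins Cryba1 and Cryga on each array of the 4 groups (x axis); points are arrays in replicate order, bars the mean with SD, and the dotted line the 95th percentile of control probe sets with no target, 4.71. Tooth germ replicate 3 had Xist at 6.20 against 12.89 and 13.07, and Cryga at 8.31 against 5.07 and 4.44.

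Defining markers of each organ were checked first. Cryaa, the alpha A-crystallin that fills lens cells, was at 14.39 ± 0.05 in the lens and 5.02 ± 0.32 in its bodies (SD, n = 3 and 4), and at 4.81 ± 0.34 in the tooth germ against 5.21 ± 0.37 (n = 3 each). Lhx8, a LIM homeodomain factor of dental and palatal mesenchyme, was at 10.82 ± 0.08 in the tooth germ and 7.86 ± 0.09 in its bodies, and at 3.41 ± 0.18 in the lens, below the 95th percentile of control probe sets with no target (4.71). Shh, the ligand of the enamel knot and early dental epithelium, was not called in the tooth germ (-0.93 ± 0.38, adjusted p = 0.053), but was called lower without tooth germ replicate 1 (-1.36). The 3 tooth arrays read 8.94, 7.63 and 7.70. Of 10 dental epithelium genes tested, 5 were higher and none lower in the tooth germ (median 0.36; 16.6% and 25.3% of all genes). Shh was also called lower, at -0.93, without lens replicate 1 or 2, which enter only the shared spread.

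To show the upstream sequence of genes that carry the 2 patterns, the 250 bases before the annotated start are printed for Edaradd, which leads the shared genes, for Prox1, enriched in the lens and depleted in the tooth germ, and for Krt14 and Dsp, which did the opposite. They are RefSeq sequences of the build GRCm38.p6, read 5′ to 3′ along the gene, from chr13:12520451-12520700 (minus strand, Edaradd), chr1:190169516-190169765 (minus, Prox1, 1 of 2 windows), chr11:100206031-100206280 (minus, Krt14) and chr13:38151044-38151293 (plus, Dsp). Capitals mark matches on either strand to ACAAAG, a core bound by SOX and TCF/LEF factors, to TAATCC, bound by bicoid-type homeodomains, or to GCCNNNGGC, bound by AP-2 factors.
Edaradd: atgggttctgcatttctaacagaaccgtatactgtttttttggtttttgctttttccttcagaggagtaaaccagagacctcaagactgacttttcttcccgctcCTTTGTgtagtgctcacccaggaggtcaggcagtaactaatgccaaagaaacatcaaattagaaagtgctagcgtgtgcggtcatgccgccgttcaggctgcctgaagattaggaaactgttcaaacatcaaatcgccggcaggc
Prox1: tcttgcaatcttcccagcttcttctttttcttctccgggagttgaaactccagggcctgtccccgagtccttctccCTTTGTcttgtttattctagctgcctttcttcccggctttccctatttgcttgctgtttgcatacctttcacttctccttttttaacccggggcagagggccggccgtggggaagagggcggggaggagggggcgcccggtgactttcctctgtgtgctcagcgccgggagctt
Krt14: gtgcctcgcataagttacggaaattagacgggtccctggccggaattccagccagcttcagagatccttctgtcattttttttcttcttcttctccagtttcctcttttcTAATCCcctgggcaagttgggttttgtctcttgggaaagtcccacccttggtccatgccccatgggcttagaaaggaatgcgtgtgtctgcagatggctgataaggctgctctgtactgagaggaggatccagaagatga
Dsp: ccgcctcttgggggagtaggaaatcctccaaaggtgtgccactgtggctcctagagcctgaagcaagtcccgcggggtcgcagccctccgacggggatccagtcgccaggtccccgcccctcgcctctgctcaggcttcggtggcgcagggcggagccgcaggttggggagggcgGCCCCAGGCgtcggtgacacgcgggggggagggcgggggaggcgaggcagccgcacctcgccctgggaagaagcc
The match lies 145 bases before the start in Edaradd and 174 in Prox1 (both ACAAAG, read as CTTTGT on this strand), 140 in Krt14 (TAATCC) and 75 in Dsp (GCCNNNGGC). AACCGGTT, a motif of grainyhead-like factors, was searched as well, and none of the 4 motifs is contained in another. Over windows of 300 bases, which add the 50 after the start, ACAAAG stood in 14.2% of 13717 promoters of tested genes, in 16.7% of 48 promoters of the shared genes, in 24% of 100 promoters of genes enriched in lens and depleted in tooth germ and in 6.98% of 86 promoters of the reverse class. It stood in 13.4% of promoters of lens-only genes, 9.09% of tooth-only genes and 17.1% of genes depleted in both. In the promoters of tested, shared, lens-side opposite and tooth-side opposite genes, GCCNNNGGC stood in 24.5%, 25.0%, 27.0% and 17.4%, TAATCC in 5.40%, 4.17%, 5% and 3.49%, and AACCGGTT in 0.226% of promoters of tested genes. Of the 42 shared genes 34 had a promoter in the table. Where a gene had more than 1 window, as Prox1 did, its windows were ranked by number of matches and the first was printed. The 4 printed windows do not show how common a match is, which the shares above give. A match describes letters only, and no test was made.

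Among the shared genes, Edaradd differed from its own bodies by a similar size in both organs. It encodes the adaptor that joins the ectodysplasin receptor to NF-kappaB signalling, a pathway named for the hair, tooth and gland defects that follow its loss. Its level was 7.65, 8.42 and 7.88 on the lens arrays against 5.28 to 5.82 on the 4 bodies, and 9.79, 9.52 and 9.47 on the tooth arrays against 6.82 to 7.24 on the 3 bodies. Every organ array lay above every body array. The difference was 2.42 ± 0.25 in the lens (SE, limma adjusted p = 1.3e-07) and 2.52 ± 0.26 in the tooth germ (adjusted p = 3.7e-07), and the contrast of the organs was -0.10 ± 0.36 (adjusted p = 0.86), an SE that leaves room for a difference between them. The bodies differed as well, by 1.51 (tooth series minus lens series, limma adjusted p = 2.7e-05). The similar size thus depends on the bodies used, and with those of the other series Edaradd left the shared class. Its other 4 probe sets were weaker and uneven, with lens differences of 1.72, 0.39, 1.78 and 0.02 and tooth differences of 0.56, 1.52, 2.0 and -0.11. Of the 6 ectodysplasin pathway genes tested, Edaradd was called higher in the lens and Tnfrsf19, a related receptor, lower (-1.55 ± 0.27), and in the tooth germ Edaradd and Tnfrsf19 (0.74 ± 0.29, adjusted p = 0.048) were higher and Traf6, a signalling ubiquitin ligase, lower (-0.64 ± 0.17). The tooth call of Tnfrsf19 was lost under 11 of the 13 leave-one-out fits (0.62 to 0.81). The ligand gene Eda was not called in either organ (0.01 ± 0.15 and 0.38 ± 0.16).

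Several other shared genes encode proteins of adhesion or of the cytoskeleton, a grouping by known role that was not tested. Cdh1, the E-cadherin of epithelial junctions, was at 10.20, 10.46 and 10.48 in the lens and 7.22 to 7.67 in its bodies, and at 8.50, 9.05 and 9.12 in the tooth germ and 7.04 to 7.15 in its bodies. Neither pair of groups overlapped. Its difference was larger in the lens (2.98 ± 0.16) than in the tooth germ (1.80 ± 0.18), with a contrast of 1.18 ± 0.24 (adjusted p = 0.00066). Plec and Dst encode plectin and dystonin, linkers that tie keratin filaments to hemidesmosomes and other anchors. Plec exceeded the body by 2.09 ± 0.15 and 1.76 ± 0.16, and Dst by 1.82 ± 0.25 and 1.49 ± 0.27. In neither was the contrast of the organs called. Other probe sets of Dst differed: 1 of them read -0.85 in the lens and 3.64 in the tooth germ, and the gene makes several long isoforms. Sptan1, a spectrin of the membrane skeleton, exceeded the body by 1.33 and 1.03 and had the same direction on its second probe set (1.71 and 1.06).

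Secreted and signalling genes formed another group, described by known role and not tested as a list. Jag1, a Notch ligand that lens fibre cells need, was at 11.83, 11.60 and 11.47 in the lens and 8.76 to 9.26 in its bodies, and at 9.47, 9.88 and 9.73 in the tooth germ and 7.74 to 8.21 in its bodies. Dkk3, a secreted member of the dickkopf family, exceeded the body by 4.35 ± 0.18 in the lens and 1.66 ± 0.19 in the tooth germ, and its second probe set gave 4.46 and 1.80. Igfbp7, a secreted IGF-binding protein, was at 12.89, 13.03 and 12.88 in the lens, 6.95 to 7.20 in its bodies, 9.53, 9.09 and 8.98 in the tooth germ and 7.20 to 7.52 in its bodies. Its lens difference was far larger, 5.82 ± 0.17 against 1.82 ± 0.18 (contrast 4.0 ± 0.25, adjusted p = 5.7e-10), and a dimmer probe set read 4.23 and 0.58 while another was flat in both (0.05 and 0.08). Cadps2, a protein of dense-core vesicle release, did the reverse: 7.51, 7.66 and 7.37 in the lens against 5.66 to 6.25, and 10.13 ± 0.18 in the tooth germ (SD, n = 3) against 6.72 to 7.02, a contrast of -1.69 ± 0.26 (adjusted p = 4.0e-05).

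**Figure D3:**
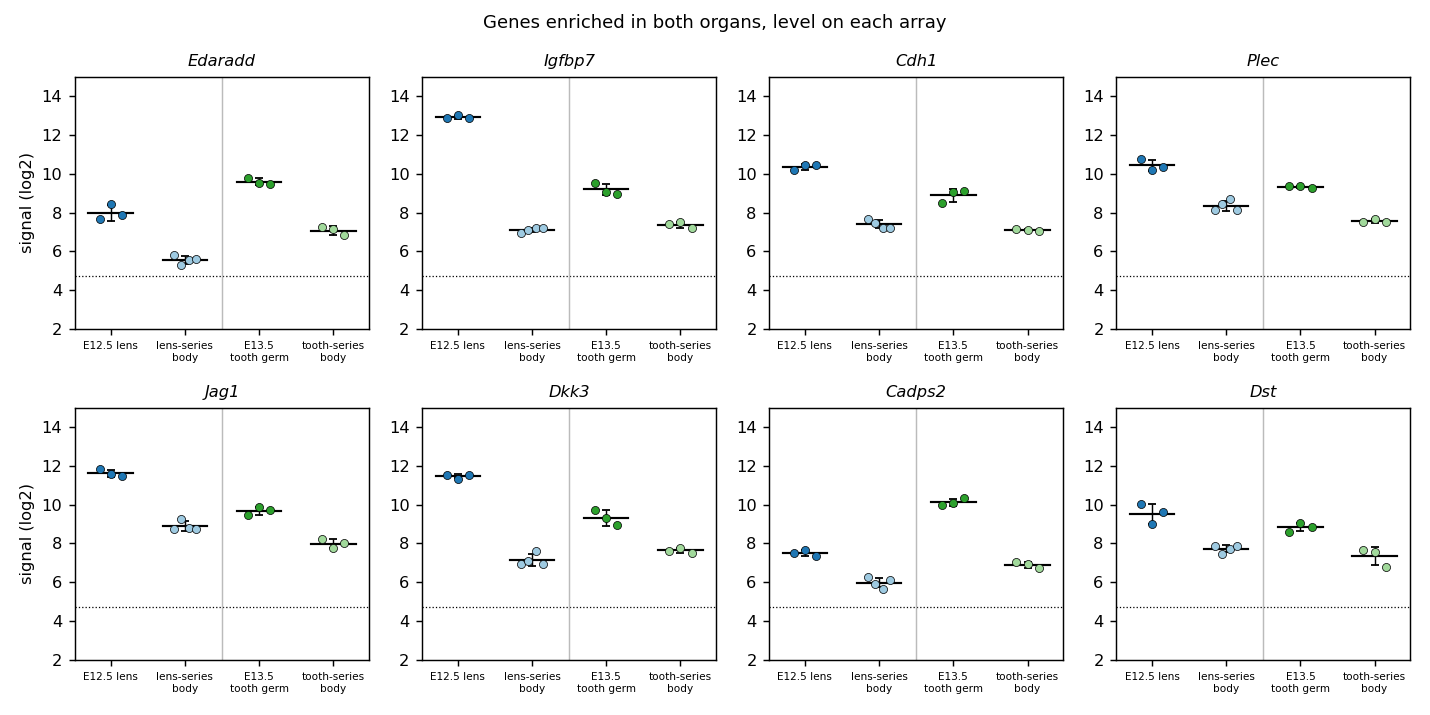
Signal (log2, y axis) on each array of the 4 groups (x axis) for the 8 shared genes with the largest smaller difference; points are arrays, bars the mean with SD, the grey line parts the lens series from the tooth series and the dotted line marks 4.71, the 95th percentile of control probe sets with no target. In every panel the organ arrays lie above their own bodies, and Edaradd has nearly equal steps, 2.42 and 2.52.

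The remaining 34 shared genes ranked lower by the lesser of their lens and tooth differences. They are named here, apart from Sptan1 above, to complete the class. Single steps among them could still be large, as for Map7 (5.0) and Gss (3.30) in the lens and Dapl1 (3.27) in the tooth germ. The medians over all 42 shared genes were 1.59 in the lens and 1.33 in the tooth germ, where the medians over all genes were -0.05 and -0.04. Matrix and guidance proteins among them were Npnt (nephronectin, an integrin ligand of basement membranes), Spon1, Sema5a, Tenm2 and Lgi2. Carriers, receptors and metabolic enzymes were Slc2a1 (the glucose transporter GLUT1; 1.69 ± 0.19 and 1.17 ± 0.21), Vldlr (a lipoprotein and reelin receptor), Ptgfr (a prostaglandin receptor), Gss (glutathione synthetase; 3.30 ± 0.24 and 1.34 ± 0.26), Nme4, Pld1 and Plcd3. Map7, which binds microtubules, had the widest gap between organs after Igfbp7, 5.0 ± 0.17 in the lens and 1.10 ± 0.18 in the tooth germ. Transcription and RNA genes were Zeb2, a repressor of E-cadherin in other tissues (1.07 ± 0.20 and 1.77 ± 0.22), Dbp, Taf15 and the noncoding Firre. The others were Samd5, Rnf6, 4632427E13Rik, Mid1, Gipc1, Etl4, Tmem132a, Serpinb6b, 2900026A02Rik, Fam71e1, Wipi1, Dapl1, Plekhg3, S100a4, Pdrg1 and Erdr1. Dapl1 was the 1 gene whose arrays overlapped, in the lens (5.79 to 6.98 against 5.12 to 5.84); the other 41 of 42 did not overlap in either organ, against 19.6% of all genes with every lens array above its bodies and 24.4% in the tooth germ (31.7% with every tooth array below, 56.1% either way, and 49.1% either way in the lens), which the rule of the class largely fixes.

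For 30 of the 42 the contrast of the organs was not called, for 8 the lens difference was larger (19.2% of all genes) and for 4 the tooth difference (20.4%). Such a miss does not show that the steps were equal. The members nearest the 2-fold line were Erdr1 (lens 1.01) and Taf15 (tooth 1.02, a call lost without tooth germ replicate 1, 0.73, or tooth-series body replicate 3, 0.74) inside it, and 2310030G06Rik and Aldoc outside it, each at 0.99 in the tooth germ. Probe sets limited the class: 33 of the 42 had others, 29 of these had at least 1 other with the same sign in both organs, and 11 had at least 1 other that was also 2-fold in both. With the median over all probe sets of a gene the class held 21 genes, 13 of them among the 42, including Cdh1, Dkk3, Cadps2, Slc2a1 and Sptan1 but not Edaradd, Igfbp7, Plec, Jag1 or Dst. Mid1, Firre and Erdr1 are annotated to the X chromosome, 7.14% of the class against 3.21% of all genes tested. Firre read 8.31, 8.23 and 8.19 in the tooth germs, so that replicate 3 was like the others there, and the part of the Xist difference in these 3 genes was not tested.

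The 8 leading lens-only genes included 5 crystallins. Cryba1, Cryaa, Cryga, Cryba4 and Crygn are crystallins, Gja3 and Gje1 encode connexin family proteins, and Capn3 encodes a calpain with a lens form. Cryaa exceeded the body by 9.37 ± 0.30 in the lens and was not called in the tooth germ (-0.40 ± 0.33, adjusted p = 0.34), a contrast of 9.77. Gja3 differed by 8.33 ± 0.39 and -0.90 ± 0.42 (adjusted p = 0.095), and its lens arrays averaged 12.25 against 3.92 in the bodies. All 14 crystallins tested were higher in the lens (16.6% of all genes were), with a median of 8.71, while in the tooth germ 1 was lower and none higher, with a median of 0.07. That 1 was Cryab (-2.43 ± 0.23), the small heat shock protein alpha B-crystallin that muscle also makes. Because tooth germ replicate 3 carried crystallin signal, Cryba1 had a tooth SD of 2.34 and was not called there (-1.27 ± 0.81), but was lower without that array (-2.61, adjusted p = 0.0025). Body levels below 4.71 limit the size of such differences, and 46 lens-only genes started there. Very high lens levels may limit it as well, which was not measured. Above 12, a mark set by choice, lay 31 lens-only genes in the lens.

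In the class of 526, medians were 1.55 in the lens and -0.11 in the tooth germ. In the tooth germ 441 members were not called and 85 were called lower by less than 2-fold. For 36 members the tooth germ and its bodies were both under 4.71, and no level could be told from background there. Of 13 lens transcription factors, 9 were higher in the lens and 4 lower (16.6% and 26.7% of all genes), and 1 was higher and 7 lower in the tooth germ (16.6% and 25.3%). Of these, 6 were lens only, 3 were enriched in the lens and depleted in the tooth germ, 2, Sox2 and Meis2, were depleted in both, and Mab21l2 was in the reverse class (-1.75 in the lens, 1.43 in the tooth germ). Pitx3 and Foxe3, in which mutations cause lens defects, were higher in the lens (4.21 ± 0.17 and 4.07 ± 0.30) and not called in the tooth germ (0.31 ± 0.18 and 0.20 ± 0.32). Tfap2a, an AP-2 factor of surface ectoderm and neural crest, was 1.25 ± 0.16 higher in the lens and not called in the tooth germ (-0.07 ± 0.17), where bodies were as bright (9.61) as the tooth germ (9.54). Xist, the female-specific RNA of the array check, also met the rule of this class.

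The 8 leading tooth-only genes were Krt17, Serpinb5, Tbx1, Acaa1b, Eppk1, Serpinb1b, Pappa2 and Pof1b. Krt17, a keratin of the periderm and basal layer, was at 8.98, 9.18 and 9.40 in the tooth germ and 3.32 to 3.46 in its bodies, and at 3.25 to 3.75 in the lens and 3.87 to 4.15 in its bodies. Its tooth difference was 5.82 ± 0.17 (adjusted p = 2.5e-14), while the lens series lay wholly under 4.71. Serpinb5 (maspin) exceeded the tooth-series bodies by 4.84 ± 0.26, with replicates at 8.21, 9.15 and 9.68, and stood at 4.32 in the lens and 4.30 in its bodies. Eppk1, an epithelial plakin, Pof1b, an actin-binding protein, and Serpinb1b exceeded the tooth-series bodies by 3.45 ± 0.21, 3.49 ± 0.14 and 3.72 ± 0.19, and none was called in the lens. Tbx1, a T-box factor needed in dental epithelium, differed by 3.34 ± 0.23 in the tooth germ and -0.78 ± 0.22 in the lens (adjusted p = 0.0072), a lens call lost without lens replicate 2 (-0.61). Acaa1b, a peroxisomal thiolase, and Pappa2, a protease of IGF-binding proteins, were the other 2 leading genes (3.50 ± 0.20 and 2.80 ± 0.22). Over the 327 members the medians were 1.28 in the tooth germ and -0.18 in the lens; 246 were not called in the lens, 81 were called lower there, and 43 had the whole lens series at background.

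Opposite genes on the lens side included factors of eye identity and retinoic acid enzymes. Aldh1a1, which makes retinoic acid from retinaldehyde, was at 13.21, 13.20 and 13.20 in the lens and 5.41 to 5.81 in its bodies. In the tooth germ it was at 4.72, 4.72 and 5.55, against 8.12 to 8.58 in its bodies. The differences were 7.62 ± 0.18 and -3.39 ± 0.19 (adjusted p = 4.5e-16 and 7.7e-11), the largest contrast of all opposite genes, 11.01. The bodies of the 2 series themselves stood far apart for this gene. Its close relative Aldh1a7 differed by 6.40 ± 0.28 and -2.20 ± 0.30, and cross-hybridisation between them was not tested. Aldh1a3 did likewise (1.22 ± 0.25 and -1.47 ± 0.26), so that 3 of the 15 retinoic acid genes tested were in this class (0.608% of all genes). Crabp1 (-4.66 ± 0.35 and -2.49 ± 0.38) and Rbp4 (-5.68 ± 0.23 and -4.22 ± 0.25), which bind retinoids, were depleted in both organs.

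Pax6 encodes a paired homeodomain factor needed to form the eye. The lens arrays read 11.45, 11.03 and 11.38 for it and their bodies 7.15 to 7.51, while the tooth arrays read 3.86, 6.22 and 4.75 and their bodies 8.31 to 8.99. Its differences were 3.93 ± 0.34 and -3.76 ± 0.37 (adjusted p = 1.6e-08 and 1.6e-07). Of its 4 other probe sets, all dimmer, none read below the bodies in the tooth germ (0.29, 0.17, 0.44 and 0.07), and the tooth call was lost with their median (-0.53, adjusted p = 0.12). Prox1, a homeodomain factor that fibre cells need to lengthen, differed by 5.26 ± 0.18 and -1.85 ± 0.19, with tooth values of 0.73 and -0.28 on its other 2 probe sets. Sox1, an activator of gamma-crystallin genes, differed by 4.34 ± 0.28 and -2.94 ± 0.30, and Cryab by 4.92 ± 0.22 and -2.43 ± 0.23. Their lens side held on the second probe set (2.40 and 5.53), and their tooth side was weaker there (-0.59 and -0.50). Vit, a matrix protein first described in the vitreous, and Rbm24, an RNA-binding protein of lens and muscle, completed the leading 8 (6.12 ± 0.33 and -1.55 ± 0.35; 4.39 ± 0.39 and -2.97 ± 0.42). Other probe sets of Rbm24 read 0.26, -0.05, 0.62 and -0.18 in the tooth germ. The mean tooth germ levels of Prox1 (3.83), Sox1 (3.92), Vit (4.50) and Rbm24 (4.29) lay under the control level of 4.71. The sizes of their fitted tooth differences thus rest partly on signal that cannot be told from background.

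The 8 leading genes enriched in the tooth germ and depleted in the lens were Postn, Sostdc1, Lhx8, Penk, Dsp, Pdlim4, Dsg2 and Frzb. Sostdc1, a secreted BMP and Wnt antagonist that limits tooth number, was at 10.48, 10.59 and 10.37 in the tooth germ and 6.83 to 7.02 in its bodies, and at 4.56, 5.0 and 4.76 in the lens and 7.12 to 7.68 in its bodies. The differences were 3.55 ± 0.18 and -2.74 ± 0.17, and its second probe set gave 3.22 and -2.32. Dsp, the desmosomal plaque protein desmoplakin, was at 12.46, 12.83 and 12.84 in the tooth germ and 10.26 to 10.73 in its bodies, but at 4.18 to 4.55 in the lens against 7.94 to 8.73. Its tooth difference was 2.28 ± 0.23 and its fitted lens difference -3.82 ± 0.22, whose size is not a bound, since the lens values lay under 4.71. Dsg2, a desmosomal cadherin, also lay there (3.34 to 4.22), with differences of 2.64 ± 0.31 and -3.19 ± 0.29. Lhx8 differed by 2.96 ± 0.21 and -3.24 ± 0.19, and Postn, the matrix protein periostin of fibroblasts, by 1.87 ± 0.22 and -4.59 ± 0.20. Penk, Pdlim4 and Frzb, which encode an opioid precursor, an actin-linked LIM protein and a secreted Wnt antagonist, made up the rest of the leading 8 (tooth 3.08 ± 0.24, 2.83 ± 0.17 and 2.39 ± 0.21; lens -3.10 ± 0.22, -3.24 ± 0.15 and -3.30 ± 0.19).

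**Figure D4:**
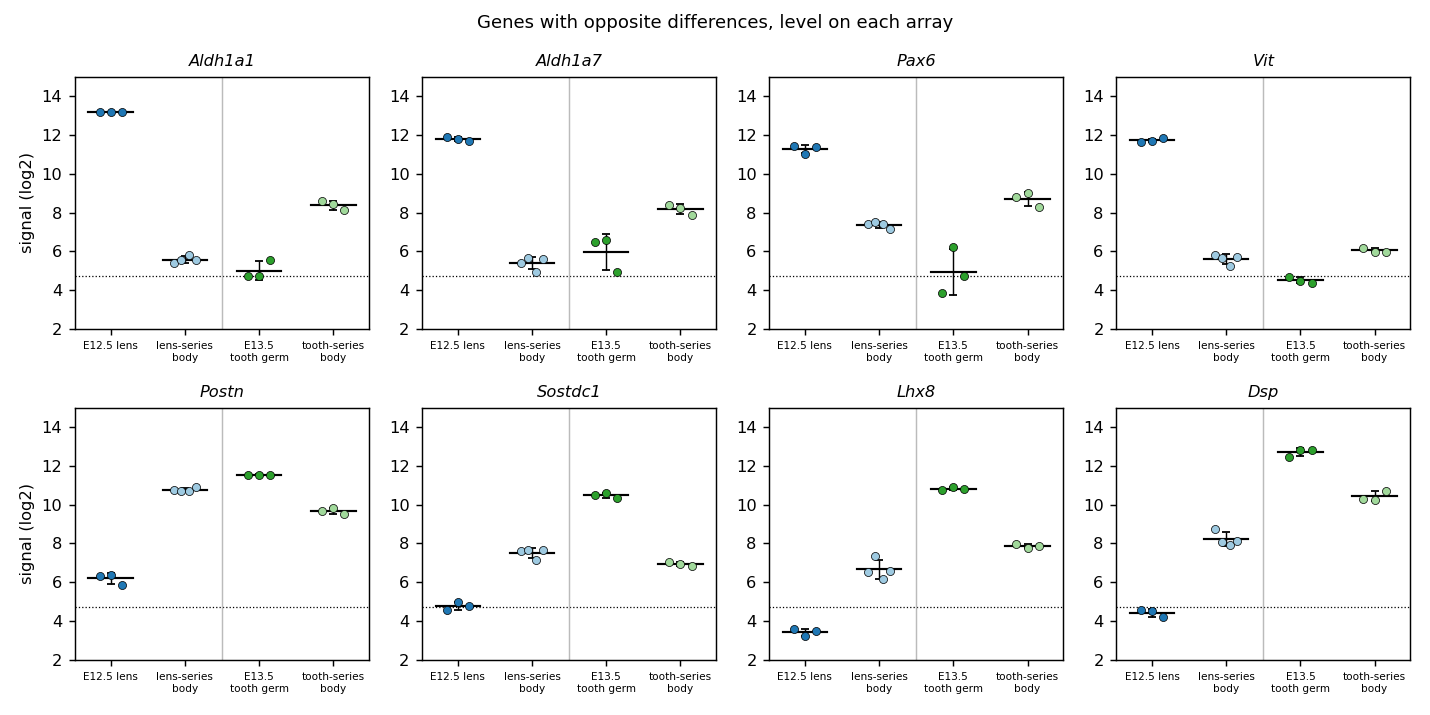
Signal (log2, y axis) on each array of the 4 groups (x axis) for 4 genes enriched in lens and depleted in tooth germ (upper row) and 4 genes of the reverse class (lower row); points are arrays, bars the mean with SD, and the dotted line marks 4.71. Aldh1a1 is near 13.20 in the lens and at 5.0 in the tooth germ against 8.38 in its bodies, while Dsp is at 12.71 in the tooth germ and 4.41 in the lens.

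The bodies differ between the series and enter both kinds of opposite call. Between the tooth-series and lens-series bodies 63.6% of all genes were called different and 30.3% differed at least 2-fold. Among genes enriched in lens and depleted in tooth germ it was 43.2% (35 of 81), 31 of them brighter in the tooth-series bodies, and among the reverse class 45.7% (42 of 92), 27 of them brighter in the lens-series bodies. Shared genes had 35.7% (15 of 42), lens-only genes 25.9% and tooth-only genes 44.0%. With the bodies of the other series as control, 36 genes were enriched in both organs, 13 of them among the 42, among them Igfbp7, Cdh1, Dkk3, Dst, Gss, Vldlr and Map7. Edaradd, Plec, Jag1 and Cadps2 were among those that left. With those bodies the tooth difference of Aldh1a7 (0.59), Barx1 (-0.60), Epcam (-0.72), Bmp4 (-0.14) and Erdr1 (-1.9) and the lens difference of Tfap2a (-0.58) changed sign, as did the lens differences of Krt17 (0.06), Tbx1 (0.38) and Csf1r (-0.65) and the tooth differences of Pitx3 (-0.47), Prrx1 (0.91) and Pax9 (-0.04). With the bodies of the other series 37 of the 81 and 50 of the 92 opposite genes kept their class, and with all 7 bodies 42 and 56 did. Within the class of 81, 57 genes had other probe sets, 41 with another of the same signs and 9 with another that was 2-fold both ways; in the class of 92 these were 54, 49 and 13.

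Many surface ectoderm and epithelial adhesion genes were higher in the tooth germ and lower in the lens. Of 26 tested, 17 were higher and 1 lower in the tooth germ (median 0.89), and 2 were higher and 18 lower in the lens (median -1.41), where 16.6% and 26.7% of all genes were called higher and lower in the lens and 16.6% and 25.3% in the tooth germ. Cdh1 was the 1 member enriched in both, and 9 of the 26 were enriched in the tooth germ and depleted in the lens (0.691% of all genes). A further 2 were tooth only, 1 was lens only and 1 was depleted in both. Krt14, a keratin of the basal layer, was at 9.84, 10.17 and 10.27 in the tooth germ and 6.29 to 6.66 in its bodies, and at 5.75 to 6.44 in the lens and 7.56 to 8.23 in its bodies. Its partner keratin Krt5 differed by 2.98 ± 0.28 and -1.57 ± 0.27. Trp63, the p63 factor of stratified epithelia, differed by 2.68 ± 0.19 in the tooth germ and -2.49 ± 0.18 in the lens, where it stood at 3.90. Epcam differed by 1.16 ± 0.16 and -2.84 ± 0.15 on its leading probe set, while a second one read 0.74 and 0.20. Cldn7, a tight junction protein, was the 1 member lower in both (-1.56 ± 0.25 in the lens, -1.54 ± 0.27 in the tooth germ).

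Dental mesenchyme genes were also often higher in the tooth germ and lower in the lens. Of 14 tested, 11 were higher and 1 lower in the tooth germ (median 1.13), and none was higher and 11 were lower in the lens (median -1.83). Of all genes, 16.6% were higher and 25.3% lower in the tooth germ, and 16.6% and 26.7% in the lens. The class enriched in tooth germ and depleted in lens held 7 of the 14, against 0.691% of all genes. Msx1, a homeobox gene in which mutations cause missing teeth, was at 11.11, 11.10 and 10.97 in the tooth germ and 8.42 to 8.66 in its bodies, a difference of 2.51 ± 0.28, and differed by -1.60 ± 0.27 in the lens. Barx1, a factor of molar mesenchyme, differed by 1.15 ± 0.29 and -1.96 ± 0.27, Dlx1 by 1.11 ± 0.26 and -3.04 ± 0.24, Dlx2 by 0.83 ± 0.32 (adjusted p = 0.043) and -1.79 ± 0.30, and Bmp4, the ligand by which dental epithelium and mesenchyme signal, by 1.19 ± 0.21 and -2.84 ± 0.19. The call of Dlx2 in the tooth germ was lost without replicate 1 or 3 (0.81 and 0.72) or any 1 of the tooth-series bodies (0.76 to 0.93), and without lens-series body replicate 1 (0.83). Inhba, the activin subunit, was tooth only (2.42 ± 0.13; lens -0.38 ± 0.12). Pax9 rested on its brightest probe set, which was flat (0.07 ± 0.13 in the lens; 0.35 ± 0.14 in the tooth germ, adjusted p = 0.045, a call lost under 11 of the 13 leave-one-out fits, 0.29 to 0.35), while a dimmer one read -1.52 and 2.56. Alx1, a factor of frontonasal mesenchyme, was depleted in both (-2.57 ± 0.21 and -4.06 ± 0.22).

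General mesenchyme markers moved with these genes. Of 15 mesenchyme and fibroblast genes none was higher and 14 were lower in the lens (median -2.38), and 9 were higher and 2 lower in the tooth germ (median 0.66). The shares of all genes were 16.6% higher and 26.7% lower in the lens, and 16.6% and 25.3% in the tooth germ. The mean log2 level over the list was 7.59 to 7.98 on the lens arrays and 10.05 to 10.24 on their bodies, and 9.63 to 9.78 on the tooth arrays and 8.89 to 9.21 on theirs. Prrx1, a head and limb mesenchyme factor, was not called in the tooth germ (-0.04 ± 0.23) and differed by -4.70 ± 0.21 in the lens. None of the 15 was at background in the tooth germ. The part of mesenchyme in the tooth-side differences was not tested, and in such bulk tissue fewer cells of a type and less RNA per cell cannot be told apart. Macrophage genes were higher for 5 of 11 and lower for none in the lens (median 0.48; 16.6% of all genes were higher), and lower for 4 and higher for none in the tooth germ (median -0.37; 25.3% of all genes were lower). Csf1r, the receptor for macrophage growth, was not called in the lens (0.41 ± 0.19), except without lens-series body replicate 2 (0.52), and was lower in the tooth germ (-1.83 ± 0.20). Of 4 pigment cell genes 3 were higher in the lens, among them Mitf (1.73 ± 0.25), and 1, Pmel, was lower in the tooth germ (-1.09 ± 0.17).

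In the list of placode and head ectoderm regulators, most genes were below the body in each organ. Pax6, Prox1, Foxe3, Pitx3 and Tfap2a stood in other lists, so the counts describe this list as drawn up. Of 20 tested, 3 were higher and 14 lower in either organ (medians -1.80 in the lens and -1.15 in the tooth germ), and 9 were depleted in both, against 4.26% of all genes. The shares of all genes were 16.6% higher and 26.7% lower in the lens, and 16.6% and 25.3% in the tooth germ. Foxd1, a forkhead factor, differed by -4.20 ± 0.21 and -4.41 ± 0.22. The 3 higher in the lens were Hmx1 (4.80 ± 0.18), Gata3 (1.88 ± 0.16) and Sall1 (1.02 ± 0.30), all lower in the tooth germ (-1.2 ± 0.19, -0.70 ± 0.17 and -2.82 ± 0.32). Those higher in the tooth germ were Pitx1 (1.93 ± 0.26), Six2 (1.19 ± 0.26) and Irx2 (0.67 ± 0.25), all lower in the lens (-2.06 ± 0.24, -1.80 ± 0.24 and -2.60 ± 0.23). No member was higher in both. The mean tooth germ levels of Hmx1 (4.64) and Sall1 (4.21) lay under the control level of 4.71. Eya1, a transcription co-activator of placodes, was not called in the lens (0.39 ± 0.17) and was slightly lower in the tooth germ (-0.51 ± 0.19, adjusted p = 0.033). That call was lost with arrays centred (-0.36) and without tooth germ replicate 2 (-0.39) or tooth-series body replicate 1 or 3 (-0.47 and -0.51), and the lens was called higher without lens-series body replicate 1 (0.52). Sox2, a factor of early placodes and of neural tissue, was depleted in both (-1.98 ± 0.25 and -2.40 ± 0.26). List members named here and below that are not among the leading 8 of a class were partly chosen after their values were seen.

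Basement membrane genes had medians of 0.88 in the lens and 0.49 in the tooth germ. Of 17 tested, 10 were higher and 5 lower in the lens, 8 were higher and 2 lower in the tooth germ, and none was enriched in both. Of all genes, 16.6% were higher and 26.7% lower in the lens, and 16.6% and 25.3% in the tooth germ. Only 0.315% of all genes were enriched in both, so that none among 17 is near that share, as is the count lower in the lens. Col4a5 and Col4a6, collagen IV chains of the lens capsule, exceeded the body by 3.81 ± 0.24 and 4.03 ± 0.18 in the lens and differed by -1.14 ± 0.26 and -0.26 ± 0.20 in the tooth germ, so that Col4a5 was an opposite gene. Nid1, a linker of collagen IV and laminin, was lens only (3.06 ± 0.22; tooth 0.12 ± 0.23). Col17a1, the hemidesmosomal collagen of stratified epithelia, and Lama3, a laminin chain of the same anchor, were tooth only (2.65 ± 0.23 and 1.72 ± 0.18). The laminin chains Lamc1 and Lama5 were called higher in both organs, each below 2-fold in 1 of them (Lamc1 1.19 ± 0.22 and 0.88 ± 0.24; Lama5 0.91 ± 0.18 and 1.58 ± 0.19).

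Counts in the signalling lists are to be read against 16.6% of all genes higher and 26.7% lower in the lens, 16.6% and 25.3% in the tooth germ, and 0.315% enriched in both; several lie near these shares. Of 26 Wnt genes 7 were higher and 8 lower in the lens, and 8 were higher and 3 lower in the tooth germ; Dkk3 was the 1 enriched in both, while Fzd1 and Nkd1 were called higher in both below 2-fold in at least 1 organ. Frzb and Wif1, Wnt antagonists, were lower in the lens (-3.30 ± 0.19 and -2.97 ± 0.21) and higher in the tooth germ (2.39 ± 0.21 and 0.69 ± 0.23), where the call of Wif1 was lost without tooth germ replicate 2 (0.63) or tooth-series body replicate 2 (0.55). Lef1, which carries Wnt signals to DNA and is needed for tooth buds, differed by 1.00 ± 0.20 in the tooth germ and -1.71 ± 0.18 in the lens. Of 17 Notch genes 3 were higher and 6 lower in the lens, and 3 were higher and 7 lower in the tooth germ. Jag1 was the 1 enriched in both, and 4 were depleted in both (4.26% of all genes). The hedgehog target Gli1 differed by 1.87 ± 0.28 in the tooth germ and -1.57 ± 0.26 in the lens, and 7 of 10 hedgehog genes were lower in the lens. Among 14 FGF genes, Fgfr3 was in the class enriched in lens and depleted in tooth germ (1.73 ± 0.44 and -1.37 ± 0.48), and its tooth call was lost without any 1 of the tooth germs (-1.34 to -1.39) and without tooth-series body replicate 1 or 2 (-1.29 each). Fgfr2 was 0.72 ± 0.20 higher in the tooth germ and not called in the lens (-0.13 ± 0.18). Of 19 BMP genes 14 were lower in the lens and 4 in the tooth germ, and Bmp7 was not called in either (0.25 ± 0.14 and -0.13 ± 0.15). Of 17 Eph receptors and ephrins 10 were lower in the lens, led by Epha4 (-5.28 ± 0.16), which was 0.62 lower in the tooth germ.

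**Figure D5:**
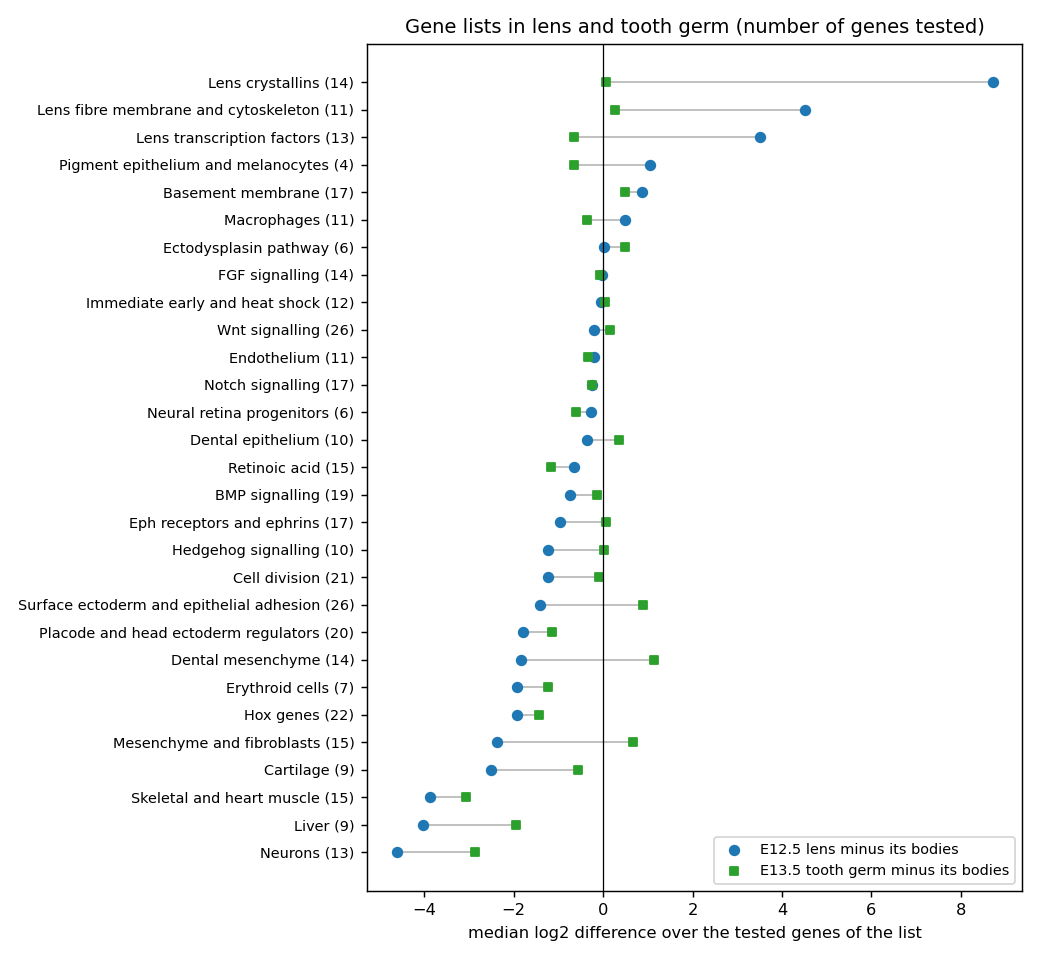
Median log2 difference from the bodies (x axis) over the tested genes of each of 29 lists (y axis, number of genes in brackets), for E12.5 lens (circles) and E13.5 tooth germ (squares), joined by a line; no test is shown. Surface ectoderm (-1.41 and 0.89), dental mesenchyme (-1.83 and 1.13) and mesenchyme (-2.38 and 0.66) lie on opposite sides of 0, while muscle, liver, neuron and Hox lists lie below 0 for both.

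The class depleted in both organs held most of the tested neuron, muscle and liver genes. Medians of the 568 genes were -2.07 in the lens and -1.87 in the tooth germ. Of all genes, 26.7% were called lower in the lens, 25.3% in the tooth germ, and 4.26% were in the class. Of 13 neuron genes 13 were lower in each organ (medians -4.61 and -2.87) and 12 were in the class; of 15 muscle genes 15 and 14 were lower and 14 were in the class; of 9 liver genes 9 and 8 were lower and 7 were in the class; and of 22 Hox genes 21 and 15 were lower and 12 were in the class. Nefl, a neurofilament subunit, was at 3.93 to 4.02 in the lens and 10.67 to 11.02 in its bodies, and at 3.96, 5.45 and 4.04 in the tooth germ and 11.37 to 11.55 in its bodies. The values in both organs lie near the control level of 4.71, apart from tooth germ replicate 2. Alb, serum albumin, differed by -7.13 ± 0.21 and -5.68 ± 0.23, Ttr, transthyretin, by -6.20 ± 0.19 and -6.80 ± 0.20, and Actc1, cardiac actin, by -7.70 ± 0.20 and -5.02 ± 0.22. Afp, the fetal serum protein, was an uneven case, with 9.45, 7.05 and 7.52 in the tooth germs and 3.07 to 3.29 in the lens. In 214 of the 568 the mean lens level lay under 4.71, so the size of the fitted lens difference rests partly on signal that cannot be told from background. The contrast of the organs was not called for 340 members, and the 2 depletions may still differ in size there.

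Cell division genes lay further below their own bodies in the lens than in the tooth germ. Of 21 tested, 20 were lower and none higher in the lens (median -1.23), and 5 were lower and 2 higher in the tooth germ (median -0.09). Of all genes, 26.7% were lower and 16.6% higher in the lens, and 25.3% and 16.6% in the tooth germ. The contrast of the organs was called for 14 of the 21, all with the lower value in the lens (20.4% of all genes). Bodies of the 2 series differed for this list and enter the contrast. Their mean log2 level over it was 10.53 to 10.61 in the lens series and 9.95 to 10.09 in the tooth series. With the bodies of the other series the contrast of Kif20a, -0.63 ± 0.34 and not called, became 2.60, and that of Mki67 kept its sign. Mki67, a marker of cycling cells, differed by -1.68 ± 0.26 in the lens and was not called in the tooth germ (-0.21 ± 0.27). Its level was 9.71 ± 0.63 in the lens, 11.38 ± 0.16 in its bodies, 11.45 ± 0.16 in the tooth germ and 11.66 ± 0.05 in its bodies.

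Scaling moved the split of calls. The median gene differed by -0.05 in the lens and -0.04 in the tooth germ, and the array medians by -0.14 and -0.16, so the differences above are relative to bodies with slightly higher medians. In the lens 2215 genes were higher and 3559 lower as deposited, and 3161 and 2876 with every array centred on its median. In the tooth germ the counts were 2214 and 3370 as deposited, and 3285 and 2724 when centred. The shared class then held 72 genes, all 42 among them, and 71 with quantile normalization, 41 of the 42 among them.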

How the data were processed

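Total RNA from hand-dissected tissue was made into biotin-labelled cRNA and hybridised to Affymetrix mouse arrays, per the labels' protocols. The values are linear signal intensities deposited by the authors, made with RMA and the affy package (listed version 0.7), per the submitters' processing notes; RMA subtracts background, equalises array distributions and summarises probes, and can compress differences near background and at high signal. Of 45101 probe sets, 34945 named 1 gene, 932 several and 9160 none. For each of 18193 genes the probe set with the highest mean log2 over the 19 arrays was kept, and 13320 genes above the median of all values (5.46, log2) on at least 3 arrays were tested. limma 3.58.1 in R 4.3.3 fitted 1 mean per group over all 19 arrays, so lens at E10.5 and E11.5 (3 arrays each) informed only the spread. Tests were two-sided with Benjamini-Hochberg adjustment over all genes tested, and the procedure was tested on simulated data. Figures were drawn with Python 3.11.15 and matplotlib 3.10.9.

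The text names all 42 shared genes, the leading 8 of every other class, some genes always described and members of the lists. Some list members, among them Gata3, Irx2, Lama3, Lamc1, Lama5, Inhba, Cldn7 and Traf6, were named beyond the planned choice. Their differences were not followed under the alternatives. Members, lists and tests were chosen with earlier results of these data known. Alternatives covered scaling, probe set choice, filters, an offset, the choice of bodies, bacterial control signal, a replicate block and leaving out each array. Array medians ran from 42.5 to 46.5.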

Additional observations from a re-analysis of the deposited data

Results flagged for a closer look

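Among the 4 bodies of the lens series, 1 array lay far from the other 3 for 9 of the 114 genes named by the planned choice. Chance alone sets apart about 1 in 20 such groups. Replicate 3 was the lowest for Sostdc1 (7.12, group median 7.64), Epcam (8.06, median 8.24), Tfap2a (7.51, median 7.88) and Sox2 (9.22, median 10.12), and the highest for Serpinb1b (3.74, median 3.39), which lies under the level of control probe sets. Replicate 1 was the lowest for Barx1 (7.22, median 7.58), replicate 2 the highest for Jag1 (9.26, median 8.79), and replicate 4 the highest for Postn (10.92, median 10.74) and Nefl (11.02, median 10.70).

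The contrast of the organs was called for 2564 genes with the larger value in the lens and 2714 with the larger value in the tooth germ. The opposite classes held 81 and 92 genes. The contrast of the 16 leading opposite genes was 11.01 for Aldh1a1, 8.61 for Aldh1a7, 7.68 for Pax6, 7.67 for Vit, 7.36 for Rbm24, 7.35 for Cryab, 7.29 for Sox1 and 7.11 for Prox1. On the tooth side it was -6.46 for Postn, -6.30 for Sostdc1, -6.20 for Lhx8, -6.18 for Penk, -6.09 for Dsp, -6.07 for Pdlim4, -5.82 for Dsg2 and -5.69 for Frzb. The bodies of the series enter each of these values.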

How the results depend on the processing

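Leaving out 1 array at a time gave 1815 to 2282 genes higher and 3075 to 3597 lower in the lens, 1826 to 2247 higher and 2760 to 3390 lower in the tooth germ, and contrasts of the organs called for 2205 to 2678 (lens larger) and 2421 to 2603 (tooth larger). The shared class then held 37 to 50 genes, lens only 501 to 549, tooth only 278 to 361, the opposite classes 72 to 93 and 85 to 100, and the class depleted in both 536 to 597. The shared class held 72 genes with centred arrays and 71 with quantile normalization. An offset of 32 on the signal gave 20 shared, 213 tooth only, 48 and 51 opposite and 363 depleted in both. A minimum difference of 1.5 gave 7, 300, 120, 30, 26 and 302 in the order of the 6 classes. The median probe set gave 21 shared genes and 53 enriched in lens and depleted in tooth germ. With all 7 bodies as control the opposite classes held 144 and 179 genes. With the bodies of the other series, 4358 genes were higher in the lens, 3715 in the tooth germ, the contrast was called for 4918 and 4920, and 980 were lens only, 1311 and 1035 opposite. Differences near 0 that were not called can change sign with centring as well. Among the named genes followed under the alternatives, differences called as deposited or under the alternative changed sign under 3 of the settings run. With the median probe set these were the contrast of Bmp5 (-1.34) and the lens difference of Pax9 (-1.23). With all 7 bodies they were the contrasts of Actc1 0.08, Alx1 -0.66, Gas1 0.74, Hes5 -0.71, Crabp1 0.76, Lhx2 1.13, Tnnt2 0.01, Tubb3 0.30, Col2a1 0.78, Klf1 0.84, Tfap2a -0.50 and Erdr1 2.90, and the tooth difference of Erdr1 (-0.33). With the bodies of the other series they were the lens differences of Krt17 0.06, Tbx1 0.38, Dct -0.37, Csf1r -0.65, Kif20a 0.06, Jun 1.35 and Tfap2a -0.58, the tooth differences of Aldh1a7 0.59, Pitx3 -0.47, Il17rd 0.53, Bmp2 0.29, Prrx1 0.91, Dct 0.74, Pax9 -0.04, Barx1 -0.60, Epcam -0.72, Tfap2a 1.75, Bmp4 -0.14 and Erdr1 -1.9, and the contrasts of Nefl -1.19, Nefm 0.92, Alb 0.88, Actc1 2.85, Myh3 -1.77, Alx1 -2.82, Bmp5 -3.74, Gas1 1.67, Hes5 -3.53, Rbp4 0.65, Crabp1 3.68, Dct -1.11, Lhx2 2.62, Tnnt2 1.27, Tubb3 5.24, Col2a1 4.61, Hoxc8 -2.96, Hoxa10 0.40, Klf1 2.61, Kif20a 2.60, Pax9 0.52, Barx1 0.40, Tfap2a -2.32, Fgfr2 0.19, Erdr1 6.57, Taf15 -2.41 and 2310030G06Rik -1.24. The cause was not tested. Replicate numbers did not pair the arrays (correlations of deviations -0.51, -0.18 and -0.26 in the lens series and -0.08, 0.03 and -0.05 in the tooth series). With the replicate block 2123 genes were higher and 3322 lower in the lens, 2178 and 3337 in the tooth germ, and 39 were shared.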
